A study of Mus musculus with 3 samples.

Results

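Integrins are cell-surface receptors for matrix and for other cells, each built from 1 alpha and 1 beta chain. The 10 integrin genes described here, of 55536 annotated genes in the files, were picked by symbol, with earlier results of these data known. They are the beta chain genes Itgb1, Itgb2 and Itgb5 and the alpha chain genes Itgam, Itgal, Itgax, Itga4, Itga5, Itga6 and Itgav. They were measured in the cytosolic RNA of primary macrophages grown from the bone marrow of C57BL/6J mice and exposed to 100 ng/ml lipid A, a Toll-like receptor 4 agonist, for 60 min. The assay was total RNA-seq after depletion of ribosomal RNA, from 1 µg of RNA per library. There is 1 group of 3 libraries, with biological replicate numbers 1, 2 and 3, and sex and age were not collected. Unstimulated cells and the nuclear fraction were not analysed here, so every value is a level in stimulated cytosol and none is a response to lipid A. The labels give the libraries separate biosamples and a common donor record, and do not say whether separate mice were used. The p-values therefore reflect variation among these 3 libraries only, and that variation may be technical.

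An integrin reaches the cell surface only as a heterodimer, and the alpha chain largely decides which ligand is bound. The beta2 chain is restricted to leukocytes and pairs with the chains CD11a, CD11b and CD11c, while the beta1 chain pairs with many alpha chains that bind fibronectin, laminin or VCAM-1. Talin and kindlin bind the beta chain tail and switch the receptor to its high-affinity state, and in macrophages Src-family kinases and Syk signal from it.

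Expected counts over all features were 64110863, 72057046 and 69345880 in replicates 1, 2 and 3, so that 3 counts, the floor for a gene at 0, came to 0.0468, 0.0416 and 0.0433 CPM. Floors cover counting error only. Protein-coding genes outside the mitochondrial chromosome held 32.7, 21.6 and 23.6% of TPM (a level per length, scaled to a common total) in replicates 1, 2 and 3. They held 88.8, 82.4 and 85.4% of the counts. The median protein-coding gene of at least 1 TPM on average stood at 9.08, 5.76 and 6.86 TPM. Levels were therefore also set against that median gene. All 8 macrophage markers (among them Lyz2, Csf1r and Adgre1) were above it, with a summed level of 9561, 4846 and 5919 TPM. The 9 neutrophil markers summed to 38.8, 31.9 and 29.6 TPM, with 4 of 9 at 1 TPM or more. The 7 T and NK cell markers summed to at most 0.1 TPM, the 5 B cell markers to at most 0.63 TPM, the 5 dendritic cell markers to at most 1.1 TPM, the 6 erythroid markers to at most 0.1 TPM, the 4 mast cell markers to at most 0.96 TPM and the 6 stromal and endothelial markers to at most 3.85 TPM. The 5 platelet markers summed to 190, 125 and 203 TPM, of which Pf4 made up 99.6%. What other cells add to the integrin levels was not tested, and in bulk RNA fewer cells of a type cannot be told apart from less RNA per cell.

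All 10 integrin genes were detected in every library, in amounts that differed widely. Itgb1 was the highest member in each library, and its level was 61.2, 97.5 and 91.9 times that of the lowest member in replicates 1, 2 and 3, which was Itgax in replicates 1 and 2 and Itgal in replicate 3. Of the 10 genes, 8 lay more than 1 log2 unit above the median gene, and Itgal and Itgax lay more than 1 log2 unit below it (limma treat, adjusted p of at most 0.05). Among all 9123 tested genes, 26.3% were above and 24.5% were below in the same test. The median level of the 10 genes was 1.94 log2 units over the median gene, against 0.00 for all tested genes, and their median TPM was 29, against 7.24 for all tested genes. The calls of Itgam, Itga4, Itga6 and Itgav were lost when only genes of at least 5 TPM were tested, and those of Itgal and Itgax when no minimum was set, since the median gene itself moves with the minimum. The 10 genes held 98.4, 98.2 and 98.3% of the TPM of the 26 annotated integrin subunit genes. Since they were chosen with earlier results known, this share and the number of genes above may follow from the choice.

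**Figure D1:**
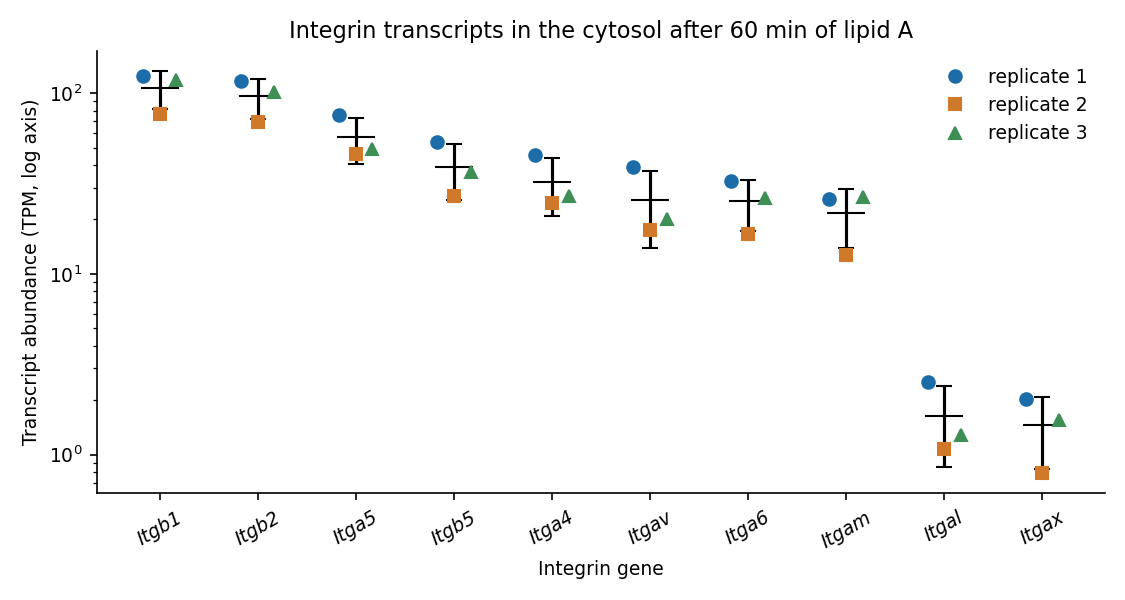
Level of each of the 10 integrin genes in TPM (log axis), with 1 point per library, a horizontal line for the mean and error bars of 1 SD (n = 3). Itgb1 and Itgb2 lie highest, Itgal and Itgax lie lowest, and replicate 2 has the lowest value of every gene.

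Replicate 2 had the lowest TPM for 10 of the 10 genes and replicate 1 the highest for 9, the exception being Itgam. The protein-coding share of TPM, without mitochondrial genes, was also lowest in replicate 2 and highest in replicate 1. Set against each library's own median gene, replicate 1 was highest for 5 genes and replicate 3 for 5, and replicate 2 was lowest for 6 and replicate 3 for 4.

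The beta2 chain gene came near the top of the family. Itgb2 (ENSMUSG00000000290.13; chromosome 10, 77530252 to 77565708, plus strand, GRCm38) encodes CD18, the common chain of the leukocyte integrins. It had 117, 69.0 and 102 TPM in replicates 1, 2 and 3, from 28356, 27649 and 35501 expected counts. This was 12.8, 12 and 14.9 times the median gene, a level of 3.70 ± 0.08 log2 units (SE, n = 3; limma treat, adjusted p = 4.6e-07), and 95.2% of the tested genes were lower.

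Itgam encodes CD11b, which with CD18 forms the complement receptor Mac-1 (ENSMUSG00000030786.18; chromosome 7, 128062640 to 128118491, plus strand). Its levels were 25.9, 12.8 and 26.5 TPM, from 10259, 8449 and 15122 counts. Replicates 1 and 3 were close and replicate 2 lay lower. Relative to the median gene Itgam stood at 2.85, 2.22 and 3.86 times, or 1.52 ± 0.14 log2 units (SE, n = 3; limma treat, adjusted p = 0.01). A gene on the same strand, Gm49368, overlaps Itgam and had 34, 20 and 35 counts.

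The other alpha partners of CD18 were scarce. Itgal encodes CD11a, the alpha chain of LFA-1, which binds ICAM-1 (ENSMUSG00000030830.18; chromosome 7, 127296260 to 127335138, plus strand), and had 2.52, 1.08 and 1.28 TPM from 1028, 725 and 758 counts. It stood below the median gene (log2 level -2.15 ± 0.12 SE, n = 3; limma treat, adjusted p = 0.00011). Itgax encodes CD11c, widely used as a dendritic cell marker (ENSMUSG00000030789.9; chromosome 7, 128129547 to 128150657, plus strand), and had 2.04, 0.79 and 1.56 TPM from 671, 437 and 732 counts. Its log2 level was -2.30 ± 0.14 (SE, n = 3; limma treat, adjusted p = 0.00013). Itgad, the remaining beta2 partner, averaged 0.0533 ± 0.00577 TPM (SD, n = 3; 16, 27 and 16 counts), and it was named after its values were seen.

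Itgam and Itgax are neighbours on chromosome 7, 11.1 kb apart, yet the Itgam level was 12.7, 16.2 and 17 times that of Itgax in replicates 1, 2 and 3. Their promoter windows, from 250 bases before to 50 after the RefSeq start (GRCm38.p6, plus strand), are shown because the genes lie side by side and differ so in level. Capitals mark GAGGAA or its reverse complement TTCCTC, a sequence that PU.1, the ETS factor of the myeloid lineage, can bind. Shorter or other forms of its site were not searched.
Itgam, chr7:128062390-128062689: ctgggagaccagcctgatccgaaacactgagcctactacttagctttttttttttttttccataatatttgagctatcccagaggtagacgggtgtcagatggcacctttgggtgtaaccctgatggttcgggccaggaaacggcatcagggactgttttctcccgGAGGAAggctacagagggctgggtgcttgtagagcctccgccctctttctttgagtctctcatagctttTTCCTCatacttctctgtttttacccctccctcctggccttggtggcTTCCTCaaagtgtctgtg
Itgax, chr7:128129300-128129599: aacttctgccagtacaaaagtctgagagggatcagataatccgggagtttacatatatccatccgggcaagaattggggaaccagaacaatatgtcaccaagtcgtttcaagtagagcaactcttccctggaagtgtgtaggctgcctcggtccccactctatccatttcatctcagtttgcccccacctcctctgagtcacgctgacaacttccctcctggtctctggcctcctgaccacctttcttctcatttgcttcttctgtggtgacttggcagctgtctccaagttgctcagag
The Itgam window holds 3 such matches and the Itgax window holds 0. Promoters of 7 of the 10 genes were matched by symbol in the RefSeq table (not Itgb2, Itgal and Itga6). On both strands, 3 motifs were searched in these windows. GAGGAA was found in 4 of the 7 windows (3 matches in Itgam, 2 in Itgav, 1 in Itga5 and 1 in Itgb1), and 28.3% of all 32817 promoter windows hold it. The GC box core GGGCGG was found in 6 of the 7 windows, all but that of Itgax, against 35.6% of all windows. The TATA core TATAAA was found in 0 of the 7, against 13.6% of all windows. A match describes these letters only, and the lack of one says only that the letters are not in this window.

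The transcript level of the beta2 chain gene exceeded the sum of its alpha partners in every library. These are ratios of RNA, and amounts of protein were not analysed. Itgb2 stood at 117, 69.0 and 102 TPM, against 30.4, 14.7 and 29.3 TPM for Itgam, Itgal and Itgax together in replicates 1, 2 and 3. The ratio was 3.83, 4.7 and 3.49 (4.01 ± 0.627, SD, n = 3), a mean log2 ratio of 1.99 ± 0.22 (SD). The exact sign-flip permutation test gave p = 0.25, the smallest 2-sided value 3 libraries allow. Within the alpha sum, Itgam made up 85.0, 87.3 and 90.3%, Itgal 8.28, 7.36 and 4.37%, and Itgax 6.7, 5.38 and 5.32%.

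**Figure D2:**
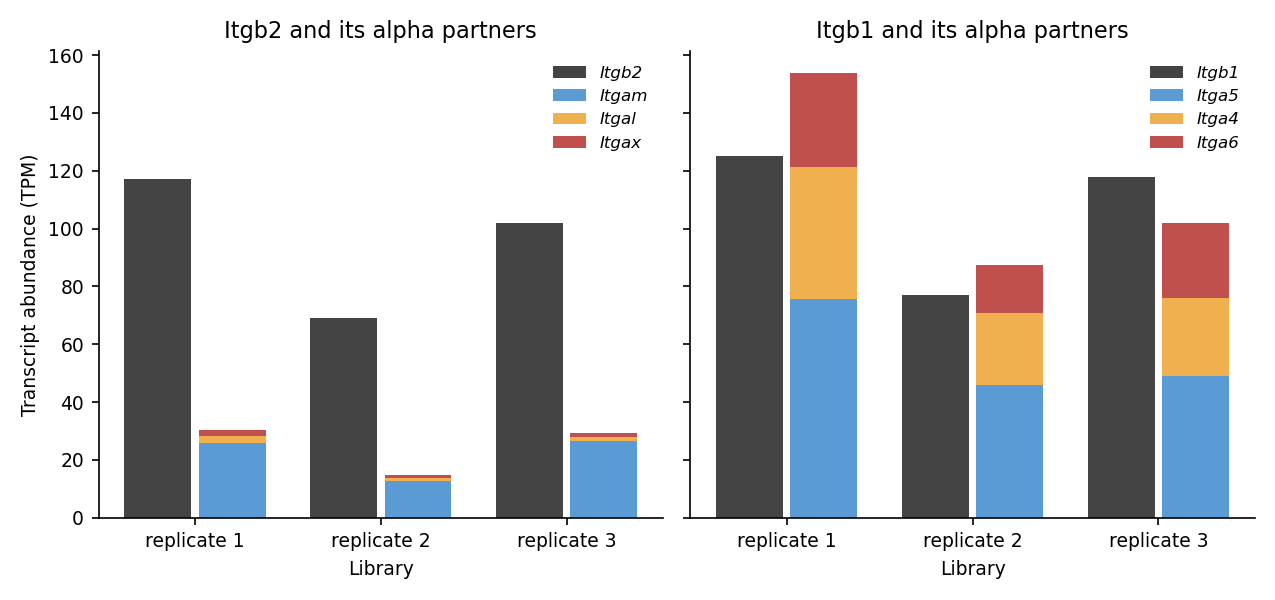
TPM of the beta chain beside its stacked alpha partners in each of the 3 libraries, for beta2 (Itgb2 with Itgam, Itgal and Itgax) and beta1 (Itgb1 with Itga5, Itga4 and Itga6). The beta2 bar is taller than its partners' bar in every library (ratios 3.83, 4.7 and 3.49), while the beta1 ratios lie on both sides of 1 (0.812, 0.88 and 1.15).

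Itgb1, the beta1 chain gene (ENSMUSG00000025809.15; chromosome 8, 128685654 to 128733200, plus strand), had 125, 77.0 and 118 TPM from 40417, 40992 and 54159 counts. It stood at 13.8, 13.4 and 17.1 times the median gene, or 3.86 ± 0.09 log2 units (SE, n = 3; limma treat, adjusted p = 5.6e-07), and 95.7% of tested genes were lower. The Itgb1 level was 1.07, 1.12 and 1.15 times that of Itgb2, a small difference with the same sign in 3 of 3 libraries.

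Itga5 encodes the alpha chain of the classical fibronectin receptor (ENSMUSG00000000555.8; chromosome 15, 103344286 to 103366763, minus strand). It had 75.6, 46.0 and 49.0 TPM from 27201, 28136 and 25657 counts, a level of 2.95 ± 0.07 log2 units (SE, n = 3; limma treat, adjusted p = 9.2e-07). Replicates 2 and 3 were close and replicate 1 was higher in TPM, while relative to the median gene the libraries lay between 7.14 and 8.32 times. Itga4 encodes CD49d, the VCAM-1 receptor chain (ENSMUSG00000027009.18; chromosome 2, 79255426 to 79333123, plus strand), and had 45.6, 24.8 and 26.9 TPM from 37574, 34505 and 32216 counts. Its level was 2.12 ± 0.08 log2 units (SE, n = 3; limma treat, adjusted p = 1.9e-05). Cerkl, on the opposite strand, overlaps Itga4 and had 72, 96 and 88 counts.

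Itga6 encodes the alpha chain of laminin receptors (ENSMUSG00000027111.15; chromosome 2, 71745616 to 71858416, plus strand). Its levels were 32.6, 16.7 and 26.2 TPM, from 9832, 8177 and 11271 counts. The level over the median gene was 1.76 ± 0.09 log2 units (SE, n = 3; limma treat, adjusted p = 0.00018). Of these 3 beta1 partners, Itga5 was the most abundant, at 1.66, 1.86 and 1.82 times the Itga4 level and 2.32, 2.75 and 1.87 times the Itga6 level. The Itga6 level includes a processed transcript of 2721 bases, Itga6-203, which held 46.7, 46.3 and 45.3% of its TPM.

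The ratio of beta1 chain RNA to the summed RNA of these 3 alpha partners lay on both sides of 1. Itgb1 stood at 125, 77 and 118 TPM, against 154, 87.5 and 102 TPM for Itga4, Itga5 and Itga6 together in replicates 1, 2 and 3. Replicates 1 and 2 had less beta chain RNA than alpha chain RNA and replicate 3 had more. The mean log2 ratio was -0.09 ± 0.26 (SD, n = 3; exact sign-flip permutation test, 2-sided p = 0.75), and it was 0.01 without replicate 1. Itgav also pairs with beta1, and with Itgav added to the alpha sum the ratio was 0.648, 0.733 and 0.963, below 1 in 3 of 3 libraries, though Itgav is shared with other beta chains. Itga5 made up 49.1, 52.6 and 48.0% of the alpha sum, Itga4 29.7, 28.3 and 26.4%, and Itga6 21.2, 19.1 and 25.6%.

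Itgav and Itgb5 encode the chains of the vitronectin receptor alphav beta5. Itgb5 (ENSMUSG00000022817.15; chromosome 16, 33829665 to 33949338, plus strand) had 53.7, 27.1 and 36.4 TPM from 12729, 10171 and 11888 counts. Its level was 2.38 ± 0.08 log2 units over the median gene (SE, n = 3; limma treat, adjusted p = 6.7e-06). Itgav (ENSMUSG00000027087.11; chromosome 2, 83724397 to 83806916, plus strand) had 38.8, 17.6 and 20.1 TPM from 13633, 12717 and 11777 counts, a level of 1.74 ± 0.11 log2 units (SE, n = 3; limma treat, adjusted p = 0.00072). Both genes were highest in replicate 1 and lowest in replicate 2. The Itgb5 level exceeded that of its partner Itgav 1.38, 1.54 and 1.81 times. On the strand opposite to Itgav, Gm13684 had 205, 26 and 98 counts and Dnmt3l-ps1 had 136, 23 and 57.

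**Figure D3:**
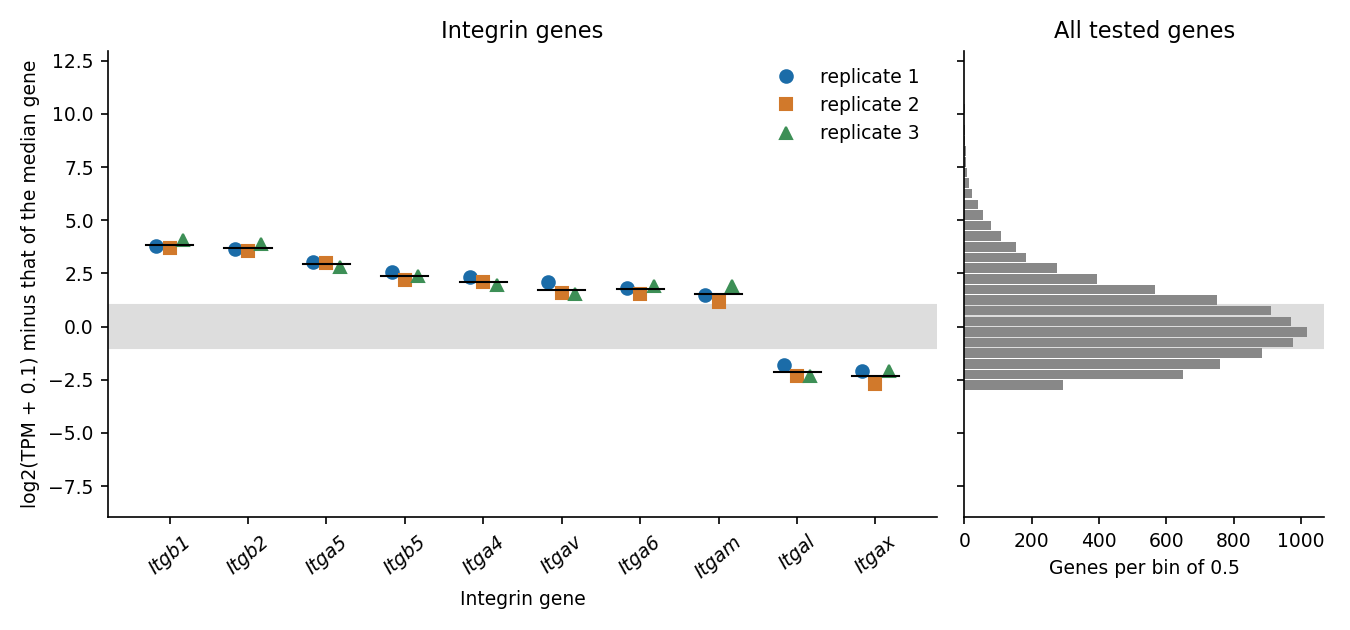
Left, level of each integrin gene over the library's median protein-coding gene (log2 scale), with 1 point per library and a line at the mean; right, number of all 9123 tested genes per bin of mean level; the grey band spans 1 log2 unit on each side of the median gene. The 8 genes called above the band range from 1.52 (Itgam) to 3.86 (Itgb1) on average, and Itgal and Itgax lie at -2.15 and -2.30.

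By mean TPM the order was Itgb1, Itgb2, Itga5, Itgb5, Itga4, Itgav, Itga6, Itgam, Itgal and Itgax. Of the 9 neighbouring pairs, 6 had the same sign in 3 of 3 libraries and a mean difference above 1 SD, each with an exact sign-flip permutation p of 0.25. The widest step was Itgam over Itgal, at 3.68 ± 0.52 log2 units (SD, n = 3), and the narrowest of the 6 was Itgb1 over Itgb2, at 0.15 ± 0.05. Itgav and Itga6 did not differ beyond their spread (-0.02 ± 0.33), nor did Itga6 and Itgam (0.23 ± 0.22) or Itgal and Itgax (0.14 ± 0.36). In each of these 3 pairs replicate 3 had the opposite sign to replicates 1 and 2.

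The 16 other integrin subunit genes were at low levels. Of these, 3 reached 1 TPM, 2 were below the median gene and 1 was not called. Itgb3, the chain that pairs with Itgav in the other vitronectin receptor and in osteoclasts, had 4.13, 2.85 and 4.24 TPM, and the Itgb5 level was 13, 9.51 and 8.58 times as high. Itgb7, a partner of Itga4 in gut-homing lymphocytes, averaged 1.62 ± 0.575 TPM (SD, n = 3), and the Itgb1 level was 54.8, 60.6 and 90.5 times as high. Itga9 averaged 1.24 ± 0.336 TPM (SD, n = 3). Among the 10 integrin genes alone, without these other subunits, the beta chain genes summed to 295, 173 and 256 TPM. The alpha chain genes among the 10 summed to 223, 120 and 151 TPM, a ratio of 1.32, 1.45 and 1.69.

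Genes that act with integrins were read from lists, and the counts below stand beside the 26.3% of all tested genes above the median gene. That share covers genes of at least 1 TPM only. Counts of genes under 1 TPM have no such share beside them, for these lists and for the other integrin subunits, and are not read as a trait of a list. Of 27 genes for integrin activation and the adhesion complex, 21 were tested and 16 were above. They included the small GTPase Rap1b at 136 ± 28.5 TPM, talin (Tln1) at 60.3 ± 14.7 TPM, filamin A (Flna), which binds integrin tails and actin, at 51.4 ± 14.5 TPM, and the leukocyte kindlin Fermt3 at 50.7 ± 9.56 TPM (SD, n = 3 each). Their levels ran from 2.79 to 4.21 log2 units over the median gene. Of 14 leukocyte integrin signalling genes, 13 were tested, 11 were above and 1 was below. The adaptors Tyrobp and Fcer1g, which carry the motif that Syk binds, stood at 787 ± 183 and 534 ± 164 TPM, the adaptor Fyb at 120 ± 31 TPM and the kinase Syk at 79 ± 21 TPM (SD, n = 3 each).

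Of 26 integrin ligands, 10 were tested, 5 were above and 1 was below, while 16 were under 1 TPM, 6 of them with no counts. Osteopontin (Spp1), a ligand of alphav integrins, averaged 1170 ± 295 TPM, Tgfb1, whose latent form alphav integrins bind, 138 ± 25.8 TPM, and thrombospondin (Thbs1) 126 ± 34.8 TPM (SD, n = 3 each). Icam1, the ligand of LFA-1 and Mac-1, had 252, 136 and 91.6 TPM in replicates 1, 2 and 3, so its highest library was far above its lowest. Fibronectin itself (Fn1), the ligand of the Itga5 receptor, averaged 0.167 ± 0.0681 TPM, and Vcam1, the ligand of the Itga4 receptor, 11.4 ± 5.53 TPM (SD, n = 3 each). Fn1 and Vcam1 were named after their values were seen.

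Of 9 lateral partners, which sit beside integrins in the membrane, 8 were tested and 6 were above. Slc3a2, the CD98 heavy chain that binds beta tails, averaged 121 ± 27.6 TPM, Cd47 72.0 ± 27.9 TPM, basigin (Bsg) 71.7 ± 19.2 TPM and the urokinase receptor Plaur 59.5 ± 14.5 TPM (SD, n = 3 each). Of 12 genes for integrin endocytosis and recycling, 9 were tested, 6 were above and 1 was below. The clathrin adaptor Dab2 averaged 104 ± 24.1 TPM, Ehd1 104 ± 31.6 TPM, Arf6 56.8 ± 12.5 TPM and Rab11a 50.5 ± 12.4 TPM (SD, n = 3 each).

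**Figure D4:**
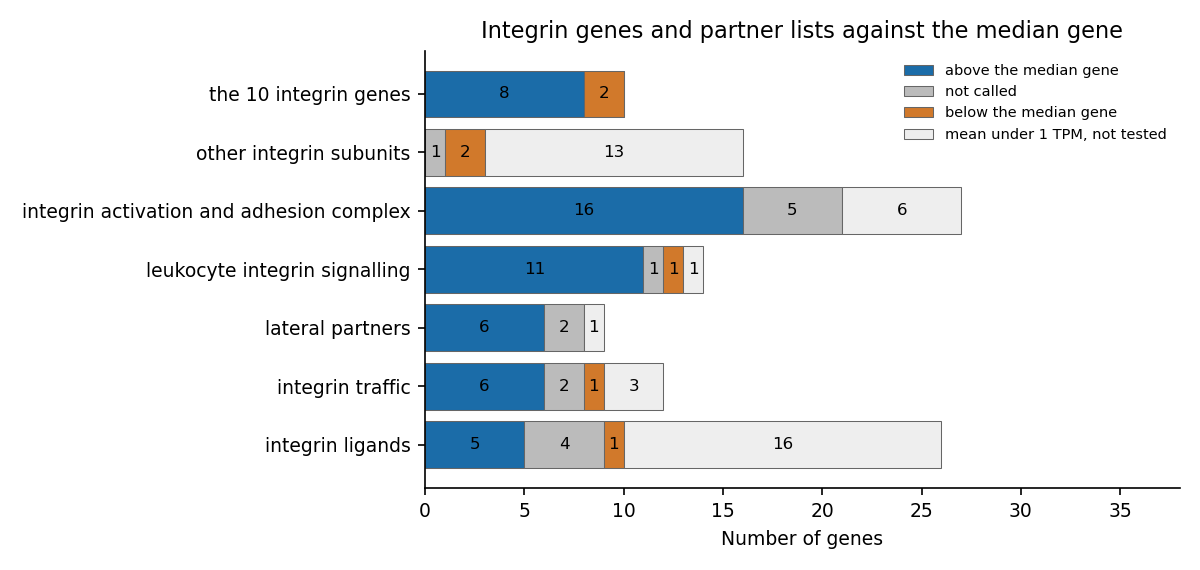
Number of genes above the median gene, not called, below it, and under 1 TPM in the integrin genes and in each list of other subunits and partner genes. The other subunits are mostly under 1 TPM (13 of 16), while 11 of 14 leukocyte signalling genes and 16 of 27 adhesion complex genes are above.

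The annotation gives the 10 genes 58 transcripts, of which 17 held at least 10% of their gene's TPM on average and 7 were at 0 in every library. In 5 genes 1 transcript held nearly all, namely Itgb1-201 (99 ± 0.136%), Itga5-201 (96.8 ± 1.78%), Itga4-201 (96.1 ± 1.82%), Itgb2-201 (95.4 ± 0.895%) and Itgax-201 (95.2 ± 0.525%; SD, n = 3 each). In the tables named as kallisto writes them, the mean shares of these transcripts were 98.4, 91.7, 92.1, 95.6 and 90.7% in the same order. The SDs therefore do not cover the difference between quantifiers. The other genes were split between forms.

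**Figure D5:**
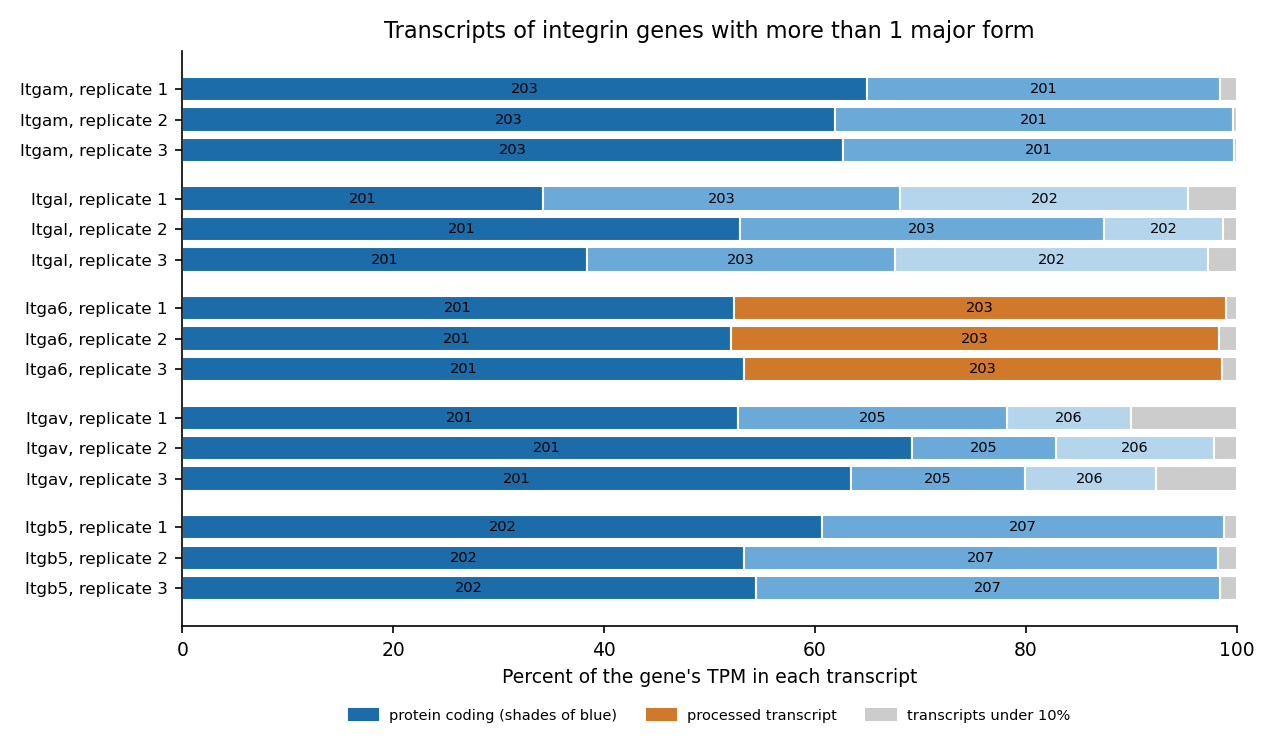
Percent of the gene's TPM in each transcript of at least 10%, in each library, for the 5 genes with more than 1 such transcript; blue shades are protein-coding transcripts, orange is a processed transcript and grey is the rest. The split of Itgam and Itga6 is nearly the same in the 3 libraries, while that of Itgal moves (Itgal-202 from 11.3 to 29.7%).

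Itgam was divided between forms that differ by 1 codon. Itgam-203 held 64.9, 61.9 and 62.7% and Itgam-201 33.5, 37.7 and 37.0% in replicates 1, 2 and 3. Both have 30 exons, and exon 14 of Itgam-201 starts 3 bases earlier, which gives 1154 residues against 1153. The junction is shown with 20 bases on each side, since only these bases and the outermost ends of the transcripts tell the forms apart. Capitals mark the bases that only the longer form has, and the sequences are from the GENCODE M21 transcripts (GRCm38, plus strand).
Itgam-201, with the codon at chr7:128101634-128101636: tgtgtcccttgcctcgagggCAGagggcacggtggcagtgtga
Itgam-203, without it: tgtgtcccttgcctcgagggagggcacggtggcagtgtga
The expected counts were 6726, 5223 and 9463 for Itgam-203 and 3504, 3204 and 5628 for Itgam-201, with posterior SDs of 228, 204 and 259 counts for Itgam-203. The tables named as kallisto writes them gave mean shares of 61.8 and 36.2%. The first exons of the transcripts also start 29 bases apart.

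Itgal had a like pair, with 3 bases at the end of exon 18 of 31 that are present in Itgal-201 and not in Itgal-202.
Itgal-201, with the codon at chr7:127317364-127317366: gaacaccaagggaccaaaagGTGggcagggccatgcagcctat
Itgal-202, without it: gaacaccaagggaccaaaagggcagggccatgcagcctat
Itgal-201 held 34.2, 52.9 and 38.4%, Itgal-202 27.3, 11.3 and 29.7%, and the 21-exon form Itgal-203 33.9, 34.5 and 29.2%. These shares rest on few reads, 311, 91 and 246 counts for Itgal-202 with posterior SDs of 85.5, 67.5 and 76.2. The kallisto tables put Itgal-203 at 4.7% and Itgal-202 at 49.6% on average, so the shares of these forms depended on the quantifier.

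Itga6 has a pair of cytoplasmic tails, set by whether a 130-base exon near the 3′ end (chromosome 2, 71853534 to 71853663) is kept. Itga6-201, which keeps it and has 1073 residues, held 52.3, 52.0 and 53.3%. Itga6-202, the full-length form that skips it and has 1091 residues, held 0.36, 0 and 0.63%, under the 10% set for naming and given here because of the comparison. The coding sequences of the tails are shown because they are the part in which the proteins differ, with the 5 codons of the membrane-proximal motif shared by alpha chains in capitals (GRCm38, plus strand).
Itga6-201, chr2:71853534-71853638: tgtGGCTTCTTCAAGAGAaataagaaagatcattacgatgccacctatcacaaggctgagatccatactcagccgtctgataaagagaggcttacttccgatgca
Itga6-202, chr2:71855854-71856012: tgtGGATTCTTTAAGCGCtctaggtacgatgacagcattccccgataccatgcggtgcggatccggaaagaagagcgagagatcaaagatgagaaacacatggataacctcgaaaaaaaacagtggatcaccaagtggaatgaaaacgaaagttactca
Itga6-203, annotated as a processed transcript of 3 exons, also skips the exon and held 46.7, 46.3 and 45.3%. Its last exon runs 1658 bases beyond the end of Itga6-201, so reads from a long 3′ end are given to it, and the tables do not tell which full-length form such reads came from. The expected counts were 6323, 5282 and 7348 for Itga6-201 and 3456, 2884 and 3824 for Itga6-203. The TPM of Itga6-203 is part of the Itga6 level, and of the beta1 ratios and alpha shares given above.

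Itgb5-202, with 15 exons and 799 residues, held 60.7, 53.3 and 54.4%, and Itgb5-207, with 11 exons and 486 residues, held 38.1, 44.9 and 44.0%. Their mean shares were 56.1 and 42.3% here and 63.5 and 32.9% in the kallisto tables, so this split depended on the quantifier. Itgav-201, the full-length form of 1044 residues, held 52.7, 69.2 and 63.4%. The short Itgav-205 (463 bases) held 25.5, 13.7 and 16.5% and the short Itgav-206 (688 bases) 11.8, 14.9 and 12.4%. These shares of TPM rest on few counts, 229, 92 and 104 for Itgav-205 and 198, 186 and 151 for Itgav-206. Itgav-201 had 12628, 12355 and 11180 counts. The TPM of both short forms is part of the Itgav level and of the ratios with Itgav given above. The kallisto tables put Itgav-205 at 0.522% on average, against 18.6 ± 6.17% (SD, n = 3) in the main tables.

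Retained-intron transcripts were annotated for 4 of the 10 genes and took small shares in the main tables. They held 4.79, 1.25 and 2.49% of Itga5, 5.17, 1.06 and 2.97% of Itgav, 0.52, 0.35 and 0.42% of Itgb1, and 4.32, 0 and 3.98% of Itgax. The Itgax shares rest on 1, 0 and 1 expected counts. The kallisto tables gave larger mean shares to each such transcript of Itga5, Itgav and Itgax. Among them were Itga5-203 (5.51%, against 1.77% in the main tables) and Itgav-203 (2.82%, against 1.79%). The mean share of Itgb1-203 was 0.409% there, against 0.43%. For Itga5 and Itgav replicate 1 was highest and replicate 2 lowest, also in the kallisto tables, whereas for Itgb1 the kallisto shares were 0.828, 0.218 and 0.182%, with replicate 3 lowest. The nuclear RNAs Malat1 (417, 122 and 322 TPM) and Neat1 (38.9, 12.4 and 35.9 TPM), named after their values were seen, had the order seen for Itga5 and Itgav, and their part in this was not tested.

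The spread of the 10 genes between libraries lay on both sides of the median gene's. The biological coefficient of variation (BCV, the relative spread of a gene between libraries beyond counting noise) ran from 0.107 for Itga5 to 0.199 for Itgax, and 5 of 10 genes were above the median of 0.122 over 13062 genes. With all 3 libraries, Itgax at 0.199, Itgam at 0.19 and Itgal at 0.168 had the highest values, and each was lower without 1 library. The BCV of Itgax was 0.132 without replicate 2, that of Itgam was 0.122 without replicate 3, and that of Itgal was 0.128 without replicate 1, each then under that of at least 1 other integrin gene.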

How the data were processed

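Total RNA-seq of cytosolic macrophage RNA was analysed from 3 libraries of 1 group. Per the file headers, the authors' gene tables give expected counts and TPM, and their transcript tables also give, for each transcript, the percent it holds of the gene's TPM and the posterior SD of its count, in columns named as RSEM writes them. Other deposited transcript tables give estimated counts and TPM in columns named as kallisto writes them. The deposited description files name build mm10 and annotation GENCODE M21. The versions of the tools, and any use of strand, are not stated in these sources, so overlapping genes on either strand are uncertain. Rows that name no annotated gene (26345) were left out. They held 0.26, 0.0933 and 0.0577% of the counts.

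The test of levels used limma 3.58.1 (R 4.3.3) on log2(TPM + 0.1), after subtracting in each library the median of the 9123 protein-coding genes with a mean of at least 1 TPM. It was treat, 2-sided, with a trended prior, a band of 1 (log2) and Benjamini-Hochberg adjustment at 0.05 over all 9123 genes. Differences on this scale understate those of low genes. Spread was the tagwise BCV of edgeR 4.0.16 on expected counts rounded to whole numbers, with TMM scaling and filterByExpr. For ratios the test was an exact sign-flip permutation over libraries. Other steps used Python 3.11.15, numpy 2.4.6, pandas 2.3.3 and scipy 1.17.1. The level and BCV scripts were tested on simulated data.

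The genes and lists were chosen with earlier results of these data known. Named are all 10 integrin genes, the 4 most abundant genes of each list by mean TPM, other subunits of at least 1 TPM, and transcripts of at least 10%. Genes named outside this rule are marked. The 3 promoter motifs were chosen after the levels were seen, and the result of each is given. Alternatives were kallisto TPM, rescaled TPM, another pseudocount, other minimum levels, other count scaling and filters, and leaving out each library.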

Additional observations from a re-analysis of the deposited data

How the results depend on the processing

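For the levels of the 10 genes, 72 of 78 alternative values kept their direction and their side of the threshold. Counts of genes are given here where they moved by over 1.5 times. The minimum level mattered most, because it sets the median gene. With no minimum, 5403 of the genes then tested were above and 5929 below (2403 and 2236 of 9123 with 1 TPM), and with 5 TPM these were 1254 and 491. The number of genes tested also changes with the minimum and is not given for the alternatives. Counts at other minimums, here and below, are therefore not shares of the 9123 genes. Of the 10 integrin genes, 4 were above at 5 TPM, where the levels were 0.60 for Itgam, 1.19 for Itga4, 0.83 for Itga6 and 0.81 for Itgav (limma treat, adjusted p = 1, 0.069, 1 and 1) and Itgal and Itgax were not tested. None, that is 0, were below with no minimum or at 5 TPM (limma, also 0 at an unadjusted p of 0.05), and with no minimum Itgal stood at -0.58 and Itgax at -0.73. At 5 TPM, 9 adhesion complex genes and 7 leukocyte signalling genes were above, and with no minimum 9 ligands were above and 10 below (5 and 1 with 1 TPM), 12 other subunits were below (2 with 1 TPM) and 4 adhesion complex genes were below. With no minimum, 1 lateral partner was below (0 with 1 TPM). At 5 TPM, 0 other subunits, 0 leukocyte signalling genes and 0 traffic genes were below (2, 1 and 1 with 1 TPM). The genes that had been below in these 3 lists were then not tested. The beta1 log2 ratio ran from -0.24 to 0.01 with 1 library left out. With no filter on counts, 0 of 10 genes had a BCV above the median, which was then 0.285 over 22361 genes. Mean TPM in the kallisto tables was lower, at 46.4 for Itgb1 and 0.651 for Itgax, and Itga6 then stood above Itgav. The number of neighbouring pairs beyond their spread was 6 there, and 5, 6 and 9 without replicates 1, 2 and 3, and the order itself also differed without replicate 1. No paired analysis was possible because there is 1 group. Depth limits the shares of Itgal transcripts, which rest on few counts.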
